A study of Oryza sativa Japonica Group with 6 samples.

Results

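The rice-specific mature miRNAs examined here are the 52 of 486 listed miRNAs whose name starts with osa-miR, whose family is numbered 1000 or more and whose sequence is not 24 nt long. The families miR1320, miR1425, miR1432, miR2118, miR2275, miR5072, miR5083 and miR6250 were left out by the same rule, which used names and lengths and no measured value. "Rice-specific" is a working name that rests on the family number alone, since the tables hold no comparison with other species. The 52 miRNAs belong to 50 families, with 42 listed for both ploidies, 4 for Taichung65-4x alone and 6 for Taichung65-2x alone.

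Small RNAs were sequenced from anthers of autotetraploid rice, Taichung65-4x, and of the diploid it came from, Taichung65-2x. Taichung65-4x was obtained by colchicine doubling of Taichung65-2x and many rounds of selfing. Each ploidy was sampled at PMA (pre-meiotic interphase), at MA (meiosis) and at SCP, when single microspores are present, in that order of development. Anthers measured 0.90–1.40, 1.45–1.95 and 1.50–2.05 mm at PMA, MA and SCP in Taichung65-4x, against 0.75–0.85, 1.00–1.35 and 1.40–1.55 mm in Taichung65-2x. Florets measured 3.50–4.00, 4.80–5.30 and 6.50–7.00 mm in Taichung65-4x, against 2.50–3.00, 3.80–4.30 and 5.50–6.00 mm in Taichung65-2x. Each of the 6 groups has 1 library, so each difference below is between 2 libraries, with no replicate error and no test. The sources used here do not say how many plants went into a library. The tables hold small RNAs only, so no marker of anther cell types could be checked. Whole anthers mix meiocytes, tapetum and wall layers, and fewer cells of a type cannot be told apart from less of a miRNA per cell.

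Plant miRNAs are cut by DICER-LIKE enzymes from the stem of a hairpin transcript and are loaded into ARGONAUTE proteins, which they guide to transcripts with near-complete pairing, often leading to cleavage. The hairpin yields a mature strand and a strand from the opposite arm, and the first base helps to decide which ARGONAUTE takes the strand, with U favoured by the AGO1 class. Grass anthers are known for large pools of small RNAs made around meiosis. No targets of these miRNAs were analysed here, and no role is given for single miRNAs.

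The sequences that the results below turn on are these, as the deposited tables give them (5′ to 3′, T for U), with the seed, bases 2 to 8, in capitals. The first 7 were the most abundant; the next 9 differed between ploidies or went their own way over the stages; the last 3 are the pair with the longest shared start and the 1 that shares its seed with a miRNA outside the group. In a name, L and R followed by a sign and a number mark bases gained or lost at the left and right end of the annotated sequence.
osa-miR5796: tCATTCAGgattgaagccgcc
osa-miR5509: tAGGCATTttctcttggcatg
osa-miR5497: cAGAATATctgggacgagcat
osa-miR5793: cGAGGACGagatacagtgcag
osa-miR5507: aATGAGAAtgatgacccggtg
osa-miR5791: tTGCAGGAgactagagaccag
osa-miR5818: tCGAACTAgaagggccaggtt
osa-miR5800: cCCGGCTAtcggaacggctgc
osa-miR5514: tCCCAGAGctttggccgtcgc
osa-miR5516a: cTCATTGCttcggtaggctgg
osa-miR5511: cATATCCCagctgtttcggcc
osa-miR5788: tGGATGTGacatactctagta
osa-miR2106_L+3R+1: tGGCCGAGgttttctggatacattc
osa-miR5486: aGGGGCTTgcatattctacca
osa-miR5515: cCGATGGTtgttctacaggtg
osa-miR5492: aGAAGGAGaatagatatggtt
osa-miR5519: tGGCAGAAgtactggacttag
osa-miR5820: tGGCAGAGattgatcgaggaa
osa-miR5505_R-3: gAGGATTCggtattgatcg
The 1 miRNA outside the group with the seed of a member was osa-miR1425-5p, which shares it with osa-miR5505_R-3.
osa-miR1425-5p: tAGGATTCaatccttgctgct

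No 2 of the 52 miRNAs shared a seed, so there was no seed family among them. osa-miR5519 and osa-miR5820 came closest, with the same first 7 bases (tggcaga), and osa-miR1859 and osa-miR2055 had the same first 6 (tttcct). Of the 52, 41 were 21 nt long, 4 were 22 nt, 3 were 19 nt, 2 were 23 nt, 1 was 25 nt and 1 was 18 nt. The group is led by 1 numbering block, since 32 of the 41 of 21 nt carry family numbers between 5486 and 5837. The annotated sequence itself was listed for 41 of them, and a form with changed ends or 1 changed base for the other 11. T, read as U in the RNA, was the first base of 28 (53.8%), A of 11 (21.2%), C of 8 (15.4%) and G of 5 (9.62%). Among miRNAs of families numbered under 1000 and not 24 nt long, called conserved here as a working name, T came first in 55.6%, and among rice-specific mature miRNAs of 24 nt A came first in 13 of 26. The median GC content was 50.2%, with a range of 28.6% to 73.9%, against 47.6% over all 486 miRNAs. The mapping class in the tables places osa-miR5490 and osa-miR5788 apart from the other 50, as matching miRNA precursors but not the genome used.

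Levels are the authors' normalized reads, a signal in which each read counts for 1.36 at PMA-4x, the highest, and for 0.797 at SCP-4x, the lowest, and a miRNA enters the table of a ploidy where it exceeds 10 in at least 1 stage. The listed values amount to 77399 to 113099 reads a library, and the 52 miRNAs to between 4760.0 normalized reads (SCP-4x) and 20752 (PMA-4x). A miRNA was called higher or lower where the larger of 2 values exceeded 10 and the fold exceeded 2, and where the table of a ploidy lacks a miRNA it was given 10, which makes its fold a bound. Intervals after a fold are 95% exact binomial (Clopper-Pearson) intervals on the recovered reads, given only where both values are whole reads. They cover counting error alone. Because 1 factor scales each library, every call was repeated with 3 other scalings: equal sums of the listed values, the median ratio of the miRNAs in both tables, and the number of clean reads. These moved the median log2 ratio of all miRNAs by up to 0.09 at PMA, 0.32 at MA and 0.33 at SCP between ploidies, and by 0.28 to 0.87 between stages. A median set beside that of all miRNAs is free of this choice, because a scaling moves both by the same amount.

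These miRNAs reached high levels: the median one had 98.5, 55.3 and 37.5 normalized reads at PMA, MA and SCP in Taichung65-4x, against 74.7, 64.2 and 35.1 in Taichung65-2x. The median over all listed miRNAs was 25.8, 21.7 and 19.9 in Taichung65-4x, against 35.0, 28.3 and 20.4 in Taichung65-2x. A few of the 52 held most of their signal, and the 10 most abundant took between 67.1% and 72.9% of the group's sum in each library. osa-miR5796 led in 5 of the 6 libraries, with 2302, 1245 and 541 normalized reads at PMA, MA and SCP in Taichung65-4x, against 1879.8, 2517 and 1329 in Taichung65-2x. In PMA-2x it came second to osa-miR5509, which had 1832, 812 and 519 normalized reads at PMA, MA and SCP in Taichung65-4x, against 2029, 1593 and 699 in Taichung65-2x. Both were at their lowest at SCP. osa-miR5497 had 1996, 1041 and 356 normalized reads at PMA, MA and SCP in Taichung65-4x, against 1803, 1467 and 523 in Taichung65-2x. osa-miR5793 had 1789.5, 1040.0 and 354 normalized reads at PMA, MA and SCP in Taichung65-4x, against 1559, 1164 and 473 in Taichung65-2x. osa-miR5507 had 1481, 720.2 and 367 normalized reads at PMA, MA and SCP in Taichung65-4x, against 1263, 1266 and 541 in Taichung65-2x. These 3 were likewise lowest at SCP in both ploidies, and each had the smaller value in Taichung65-4x at MA and SCP and the larger at PMA. osa-miR5791 had 1580.3, 524 and 265 normalized reads at PMA, MA and SCP in Taichung65-4x, against 1216, 969 and 387 in Taichung65-2x. osa-miR5818 had 1404, 513 and 281 normalized reads at PMA, MA and SCP in Taichung65-4x, against 1435.5, 920.1 and 330.5 in Taichung65-2x. All 7 are 21 nt long with no shared seed. At the other end, 10 of the 52 stayed under 20 in every library that listed them.

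**Figure D1:**
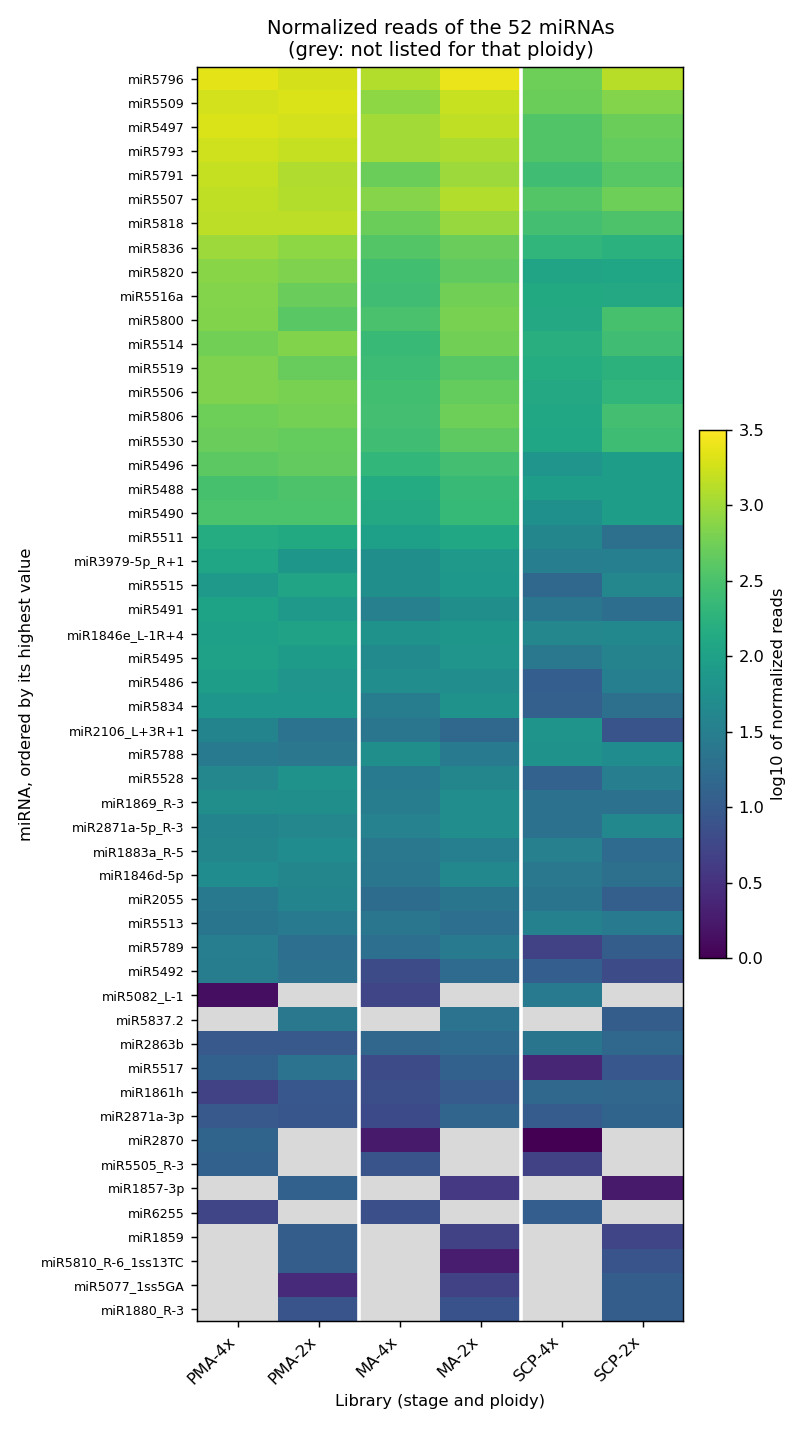
Level of each of the 52 miRNAs (rows, ordered by highest value) in the 6 libraries (columns, Taichung65-4x left of Taichung65-2x at each stage), as log10 of normalized reads; grey cells are miRNAs not listed for that ploidy. The top row, osa-miR5796, is brightest in MA-2x, while 34 of 46 rows darken at each step in Taichung65-4x and 31 of 48 do in Taichung65-2x, and osa-miR2106_L+3R+1 and osa-miR5788 are among those brightest at SCP within Taichung65-4x.

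As a share of all listed normalized reads, which no scaling changes, the group made up 16.0%, 11.1% and 7.71% at PMA, MA and SCP in Taichung65-4x, against 14.4%, 15.2% and 9.1% in Taichung65-2x. At MA the share in Taichung65-4x was below that at PMA and the share in Taichung65-2x was not. The second leans on the most abundant miRNA, osa-miR5796, which had 1879.8 normalized reads in PMA-2x and 2517 in MA-2x. The sum of the group was 18765 in PMA-2x and 16188 in MA-2x, and its share without osa-miR5796 was not followed. Conserved miRNAs went the other way over development, with 25.2%, 29.5% and 32.7% in Taichung65-4x, against 19.6%, 27.4% and 36.8% in Taichung65-2x. Strands from the opposite hairpin arm followed the group in outline, with 10.2%, 7.72% and 5.75% in Taichung65-4x, against 9.66%, 9.07% and 5.98% in Taichung65-2x. These opposite arms are of families numbered 1000 or more, are not 24 nt long and lie outside the families left out of the group. Rice-specific mature miRNAs of 24 nt held 2.59%, 5.24% and 4.21% in Taichung65-4x, against 2.95%, 3.66% and 2.74% in Taichung65-2x. Each share also depends on what the other miRNAs of its library did, and these differences were not tested.

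**Figure D2:**
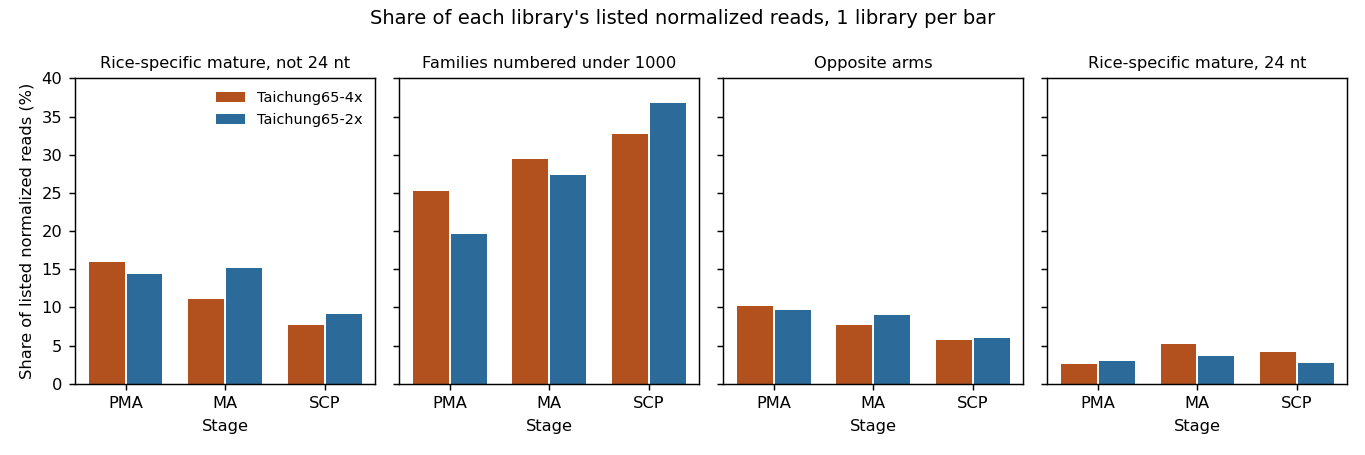
Share of each library's listed normalized reads (%, y axis) at the 3 stages (x axis) for the 52 miRNAs and, in the other panels, for conserved miRNAs, opposite arms and 24 nt rice-specific miRNAs; each bar is 1 library. The share of the 52 is 11.1% in MA-4x, against 15.2% in MA-2x, while the 24 nt miRNAs hold 5.24% in MA-4x, against 3.66% in MA-2x.

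At PMA the ploidies differed little in these miRNAs. Of 45 compared, 0 were called higher in Taichung65-4x, where 5.54% of all miRNAs compared were, and 1 was called lower, where again 5.54% of all were. The 1 lower is osa-miR5837.2, which had 25.6 normalized reads in PMA-2x and was not listed for Taichung65-4x, so it was at least 2.56-fold lower there. Over the 42 listed for both ploidies the median log2 ratio was 0.11, beside 0.01 over all miRNAs, and the single ratios ran between −0.85 and 0.82. The 5 highest ratios among miRNAs with 20 or more in one library stayed under the 2-fold limit. osa-miR2106_L+3R+1 had 38.0 normalized reads in PMA-4x, against 21.5 in PMA-2x. osa-miR5800 had 697 in PMA-4x, against 399 in PMA-2x, a 1.75-fold difference (interval 1.51 to 2.02). The other 3 were osa-miR5789, osa-miR3979-5p_R+1 and osa-miR5492, with log2 ratios of 0.73, 0.73 and 0.57. Lowest in Taichung65-4x were osa-miR5517, osa-miR2055, osa-miR5528, osa-miR5515 and osa-miR1883a_R-5, with log2 ratios of −0.82, −0.55, −0.53, −0.47 and −0.33.

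At MA most of the group lay lower in Taichung65-4x. The median log2 ratio of the 42 was −0.67, beside −0.24 over all miRNAs, and 35 of the 42 were below that median of all. The other scalings raise both medians by 0.30 to 0.32, which leaves the group's at −0.37 to −0.35. Of 43 compared, 7 were called lower in Taichung65-4x (16.3%), beside 9.21% of all miRNAs, and 1 was called higher, beside 5.26% of all. The 3 scalings left 2 of the 7 lower calls, osa-miR5514 and osa-miR5492, and the 1 higher call. osa-miR5514 had 227 normalized reads in MA-4x, against 568 in MA-2x, and was 2.50-fold lower (interval 2.15 to 2.91). osa-miR5492 had 6.34 in MA-4x, against 17.0 in MA-2x, and was 2.68-fold lower (interval 1.07 to 7.59), so its fold rests on few reads. The most abundant of the 7 was osa-miR5796, with 1245 in MA-4x, against 2517 in MA-2x. Its 2.02-fold difference (interval 1.89 to 2.16) sits at the limit and became 1.63 to 1.65 with the other scalings. osa-miR5516a had 269 in MA-4x, against 560.1 in MA-2x (2.08-fold lower). The remaining 3 lower calls were osa-miR5837.2, by its bound of 2.17-fold, osa-miR5834 (2.05-fold) and osa-miR2871a-3p (2.29-fold), and like osa-miR5516a they were lost with each scaling.

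The call in the other direction at MA was osa-miR5788, 1 of the 2 not matched to the genome, which had 55.3 normalized reads in MA-4x, against 27.4 in MA-2x. It was 2.02-fold higher in Taichung65-4x (interval 1.28 to 3.26), and 2.48-fold to 2.51-fold with the other scalings. Next above the rest were osa-miR2106_L+3R+1 and osa-miR5513, at log2 ratios of 0.64 and 0.32, both under the limit. The shift at MA was not shared by all kinds of miRNA, although the difference between kinds was not tested. Medians at MA were −0.37 for conserved miRNAs, −0.45 for opposite arms, −0.47 for all 21 nt miRNAs outside the group and 0.38 for 24 nt rice-specific miRNAs, before the same rise with the other scalings.

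At SCP the group spread out, with single log2 ratios between −1.89 and 3.00. The median of the 42 was −0.39, beside −0.11 over all miRNAs, and 24 of the 42 were below the median of all. Medians at SCP were −0.46 for conserved miRNAs, −0.42 for opposite arms and −0.48 for all 21 nt miRNAs outside the group. The 24 nt rice-specific miRNAs had 1.085, so the lower median is not particular to the group. Of 46 compared, 9 were called lower in Taichung65-4x (19.6%), beside 10.2% of all miRNAs, and 3 were called higher (6.52%), beside 13.4% of all. Called lower were also 15.3% of conserved miRNAs, 13.2% of opposite arms and 16.4% of the 21 nt miRNAs outside the group. With equal sums the group's split was 2 lower and 6 higher, and with the other 2 scalings 8 lower and 4 or 5 higher. The shares of all miRNAs called at SCP with these scalings are not given here, so the change in split is not read as particular to the group. The same shift falls on all miRNAs at this stage, a rise in log2 ratio of 0.33 with equal sums, 0.05 with the median ratio and 0.04 with clean reads. osa-miR5796 was lower again, with 541 normalized reads in SCP-4x, against 1329 in SCP-2x. That is 2.46-fold (interval 2.24 to 2.70), and 1.96-fold with equal sums. It and osa-miR5837.2 were the 2 miRNAs called lower at more than 1 stage, the second through its bound at PMA and MA. osa-miR5486 had 11.2 in SCP-4x, against 32.9 in SCP-2x, and was 2.94-fold lower (interval 1.55 to 5.90). osa-miR5515 had 15.2 in SCP-4x, against 41.8 in SCP-2x, and was 2.76-fold lower (interval 1.59 to 4.97). These last 2 kept their calls with all 3 scalings.

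The other 6 called lower at SCP lost the call with equal sums or with every scaling. Among them osa-miR5800 had 131 normalized reads in SCP-4x, against 301 in SCP-2x, and was 2.30-fold lower (interval 1.91 to 2.79). osa-miR5806 (2.26-fold), osa-miR5530 (2.18-fold) and osa-miR5528 (2.44-fold) were lower by similar amounts, the first 2 of them added to the named miRNAs after their values were seen. osa-miR5789 was 2.23-fold lower on a few reads (interval 0.774 to 7.24), which includes no difference. osa-miR2871a-5p_R-3 was 2.02-fold lower, while its partner arm osa-miR2871a-3p was lower at MA, so both arms of this hairpin were called once, at different stages.

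Higher in Taichung65-4x at SCP were 3 miRNAs, each with all 3 scalings. osa-miR2106_L+3R+1, the only 25 nt form in the group, had 63.8 normalized reads in SCP-4x, against 7.996 in SCP-2x. This 7.98-fold difference (interval 3.999 to 18.1) was the largest of the 52 in any ploidy comparison. osa-miR5511 had 40.7 in SCP-4x, against 19.5 in SCP-2x, and was 2.08-fold higher (interval 1.24 to 3.60). osa-miR5082_L-1 had 27.9 in SCP-4x and was not listed for Taichung65-2x, which makes it at least 2.79-fold higher. Next among those with 20 or more in one library were osa-miR1883a_R-5, osa-miR2055 and osa-miR2863b, at log2 ratios of 0.99, 0.95 and 0.61. Over the 3 stages, 15 of the 52 were called lower and 4 higher in at least 1 ploidy comparison (28.8% and 7.69%), beside 17.7% and 15.6% of all 486, and no miRNA of the group was called in both directions. This balance depends on the scaling, and with equal sums 5 were called lower and 7 higher, beside 10.9% and 23.3% of all. With the median ratio 11 were called lower and 6 higher, beside 14.6% and 18.3% of all. With clean reads 11 were called lower and 5 higher, beside 14.2% and 18.3% of all.

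**Figure D3:**
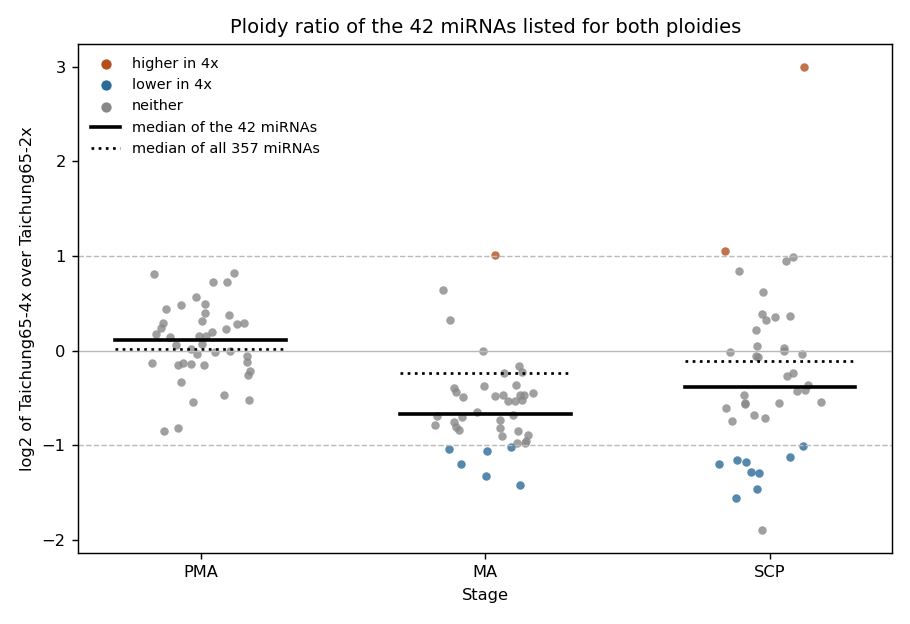
log2 ratio of Taichung65-4x over Taichung65-2x (y axis) at each stage (x axis) for the 42 miRNAs listed for both ploidies, 1 point each; dashed lines mark the 2-fold limit, the solid bar the median of the 42 and the dotted bar the median of all miRNAs in both tables. The 2 bars lie close at PMA (0.11 and 0.01) and part at MA (−0.67 and −0.24), and the uppermost point at SCP is osa-miR2106_L+3R+1 at 3.00. The lowest grey point at SCP, osa-miR5517, stays under the level of 10 in both libraries.

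**Figure D4:**
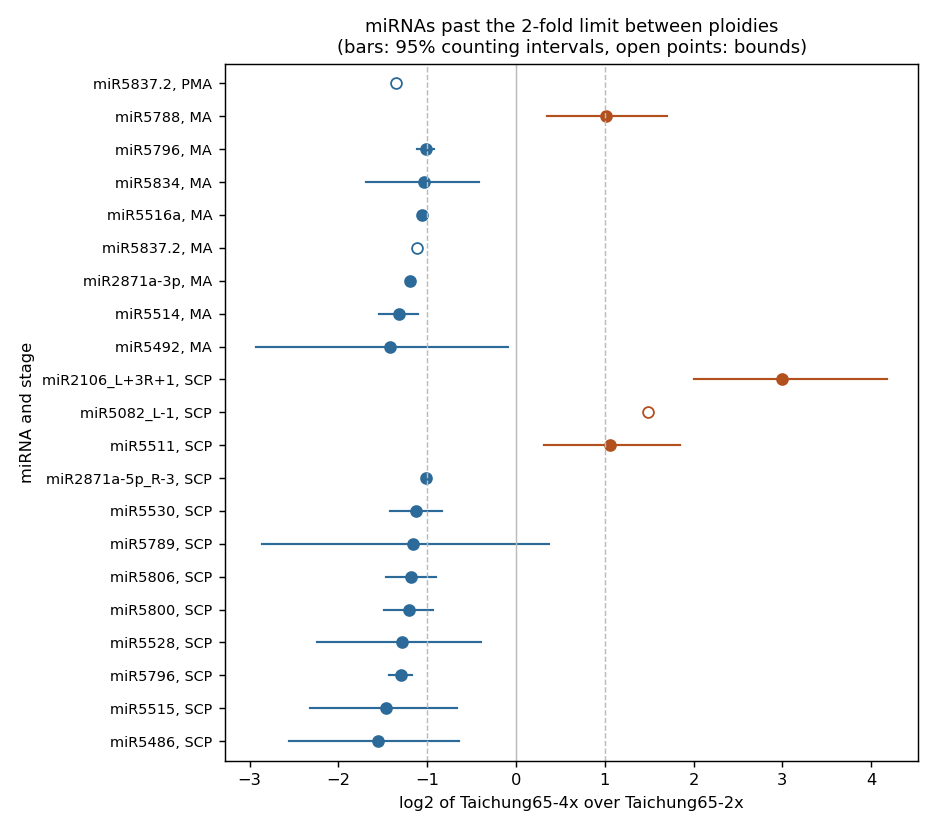
The 21 calls between ploidies, as log2 of Taichung65-4x over Taichung65-2x (x axis) for each miRNA and stage (y axis, PMA at the top); bars are 95% counting intervals where both values are whole reads, and open points are bounds for miRNAs not listed for 1 ploidy. The interval of osa-miR5789 at SCP reaches past 0, while those of osa-miR5514 at MA and of osa-miR5796 at SCP lie wholly beyond the 2-fold line.

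Between stages in Taichung65-4x the group was lower at each step, as deposited. From PMA to MA, 21 of 42 were called lower at MA, beside 29.2% of all miRNAs, and 0 higher, beside 10.3% of all. The median log2 ratio was −0.93, beside −0.49 over all miRNAs, −0.56 over conserved ones and −0.78 over opposite arms. The other scalings raise the log2 ratio of every miRNA at this step by 0.57 to 0.60. With them 3 or 4 miRNAs of the group were called lower, beside 32 to 36 of all 397 compared. They called 2 of the group higher, for which no count over all miRNAs is given here. Of the 21, 3 held with each scaling. osa-miR5491 had 33.5 normalized reads in MA-4x, against 109 in PMA-4x, and was 3.24-fold lower (interval 2.17 to 4.93). osa-miR5492 was 4.71-fold lower (interval 1.95 to 13.1). osa-miR2870 was 7.50-fold lower, on 2 reads at MA and 10 at PMA (interval 1.60 to 70.4). Among the abundant ones osa-miR5791 moved furthest, with 524 in MA-4x, against 1580.3 in PMA-4x (3.02-fold, interval 2.73 to 3.34), and it stayed past the limit with 2 of the 3 scalings. The 19 called miRNAs with an interval had it clear of 1.

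From MA to SCP in Taichung65-4x, 17 of 43 were called lower at SCP (39.5%), beside 21.3% of all miRNAs, and 3 higher (6.98%), beside 9.23% of all. The median was −0.86, beside −0.35 over all miRNAs, −0.16 over conserved ones and −0.77 over opposite arms. The other scalings raise the log2 ratio of every miRNA at this step by 0.45 to 0.60. With them 4 to 6 of the group were called lower, beside 29 to 39 of all 390 compared. They called 7 to 9 of the group higher, for which no count over all miRNAs is given here. Kept lower with each scaling were osa-miR5486, osa-miR5515, osa-miR5496 and osa-miR5789. osa-miR5486 had 11.2 normalized reads in SCP-4x, against 51.6 in MA-4x, and was 4.62-fold lower (interval 2.54 to 8.99). osa-miR5496 had 66.2 in SCP-4x, against 206 in MA-4x, and was 3.11-fold lower (interval 2.41 to 4.04). osa-miR5515 and osa-miR5789 were 3.71-fold and 3.98-fold lower. The 3 higher at SCP, with each scaling, were osa-miR5082_L-1 (5.13-fold, interval 2.14 to 14.9), osa-miR2106_L+3R+1 (2.71-fold, interval 1.72 to 4.39) and osa-miR1861h (2.12-fold, named after its value was seen). None of these 3 is 21 nt long: they have 23, 25 and 22 nt.

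In Taichung65-2x the first step left the median of the group near that of all miRNAs, while a smaller share of the group was called. From PMA to MA, 3 of 46 were called lower at MA (6.52%), beside 22.2% of all miRNAs, and 0 higher, beside 5.54% of all. The median was −0.32, beside −0.33 over all miRNAs, 0.06 over conserved ones and −0.24 over opposite arms. With clean reads the group's median was 0.06. The 3 lower ones, osa-miR5810_R-6_1ss13TC, osa-miR1857-3p and osa-miR1859, were listed for Taichung65-2x alone and had 8 or 9 reads at PMA, and only osa-miR5810_R-6_1ss13TC had a counting interval clear of 1 (1.14 to 55.2). Among miRNAs with 20 or more, osa-miR5517, osa-miR2055 and osa-miR5496 were lowest, at log2 ratios of −0.81, −0.73 and −0.68, and osa-miR5800, osa-miR5789 and osa-miR5796 highest, at 0.64, 0.49 and 0.42.

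The drop in Taichung65-2x came from MA to SCP, where 25 of 45 were called lower at SCP (55.6%), beside 37.2% of all miRNAs, and 1 higher (2.22%), beside 8.17% of all. The median was −1.07, beside −0.62 over all miRNAs, −0.09 over conserved ones and −1.08 over opposite arms. osa-miR5511 moved furthest, with 19.5 normalized reads in SCP-2x, against 127 in MA-2x (6.52-fold lower, interval 4.13 to 10.8). osa-miR5516a had 128 in SCP-2x, against 560.1 in MA-2x (4.38-fold lower). osa-miR5820 had 116 in SCP-2x, against 444 in MA-2x (3.85-fold lower, interval 3.16 to 4.71). These 3 held with each of the other scalings, which raise the log2 ratio of every miRNA at this step by 0.46 to 0.87. With them 3 to 9 of the group were called lower, beside 26 to 66 of all 355 compared. They called 2 to 5 of the group higher, for which no count over all miRNAs is given here. The 1 higher was osa-miR5077_1ss5GA, a form with 1 changed base and few reads, whose 2.26-fold ratio (interval 0.741 to 8.19) includes no difference; it was named after its value was seen. Of the miRNAs called lower from MA to SCP, 11 were so in both ploidies, which is 64.7% of the list of Taichung65-4x and 44.0% of that of Taichung65-2x. The list of Taichung65-4x from PMA to MA shared 19 with that of Taichung65-2x from MA to SCP, which is 90.5% of the first list and 76.0% of the second. Over all miRNAs the first overlap was 55, or 66.3% and 41.7% of the 2 lists, and the second 58, out of 116 in the first list and 132 in the second (43.9%). These overlaps carry no test and did not last in the group. With the other scalings its lists shared 0 to 2 and 0 to 1, but each list then held only 3 to 9 miRNAs. Over all miRNAs the lists then held 26 to 66 and shared 8 to 16 and 7 to 11.

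Followed over all 3 stages as deposited, 34 of 46 miRNAs in Taichung65-4x had a lower value at each step, beside 46.3% of all miRNAs, and in Taichung65-2x 31 of 48 did, beside 48.8% of all. The percentages for the group are 73.9% in Taichung65-4x and 64.6% in Taichung65-2x. Opposite arms gave 76.2% and 56.1%, so the course in Taichung65-4x is not particular to the group. With the 3 other scalings the group's count was between 27 and 31 in Taichung65-4x. All miRNAs then gave 28.6% to 32.4% there and opposite arms 52.4% to 58.7%. In Taichung65-2x the group's count was between 13 and 22, where all gave 21.9% to 31.8% and opposite arms 22.7% to 33.3%. The highest value was at MA in 0 of 46 in Taichung65-4x, beside 15.0% of all, and in 10 of 48 (20.8%) in Taichung65-2x, which is near the 19.7% of all. With the other scalings it was at MA in 3 or 4 in Taichung65-4x (6.52% to 8.7%), beside 11.6% to 13.4% of all. In Taichung65-2x it was then at MA in 15 to 18 (31.2% to 37.5%), beside 18.2% to 23.1% of all. Opposite arms also had it at MA less often in Taichung65-4x than in Taichung65-2x as deposited, 12.7% against 27.3%. With the other scalings they gave 17.5% to 20.6% against 31.8% to 39.4%, so frequent highest values at MA in Taichung65-2x are not particular to the group. osa-miR5796, osa-miR5800, osa-miR5507 and osa-miR5516a are among the 10, osa-miR5507 by a small margin. osa-miR5800 had 697, 315 and 131 normalized reads at PMA, MA and SCP in Taichung65-4x, against 399, 621 and 301 in Taichung65-2x. osa-miR5516a had 711, 269 and 132 normalized reads at PMA, MA and SCP in Taichung65-4x, against 504, 560.1 and 128 in Taichung65-2x. Both had a lower value at each step in Taichung65-4x and the highest at MA in Taichung65-2x.

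The opposite course, a higher value at each step, was followed by 6 of 46 in Taichung65-4x, beside 20.9% of all miRNAs, and by 3 of 48 in Taichung65-2x, beside 13.9% of all. osa-miR5788 and osa-miR1861h took it in both ploidies. osa-miR5788 had 28.5, 55.3 and 63.0 normalized reads at PMA, MA and SCP in Taichung65-4x, against 24.2, 27.4 and 50.2 in Taichung65-2x. The larger of its 2 steps was the one from PMA to MA in Taichung65-4x and the one from MA to SCP in Taichung65-2x. Of those listed for both ploidies, osa-miR2863b and osa-miR5513 took it in Taichung65-4x alone, with 9.51, 14.5 and 23.1 and with 23.1, 23.6 and 34.3 normalized reads at PMA, MA and SCP there. osa-miR2106_L+3R+1 had 38.0, 23.6 and 63.8 normalized reads at PMA, MA and SCP in Taichung65-4x, against 21.5, 15.1 and 7.996 in Taichung65-2x. It was thus highest at SCP in Taichung65-4x and lowest at SCP in Taichung65-2x.

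**Figure D5:**
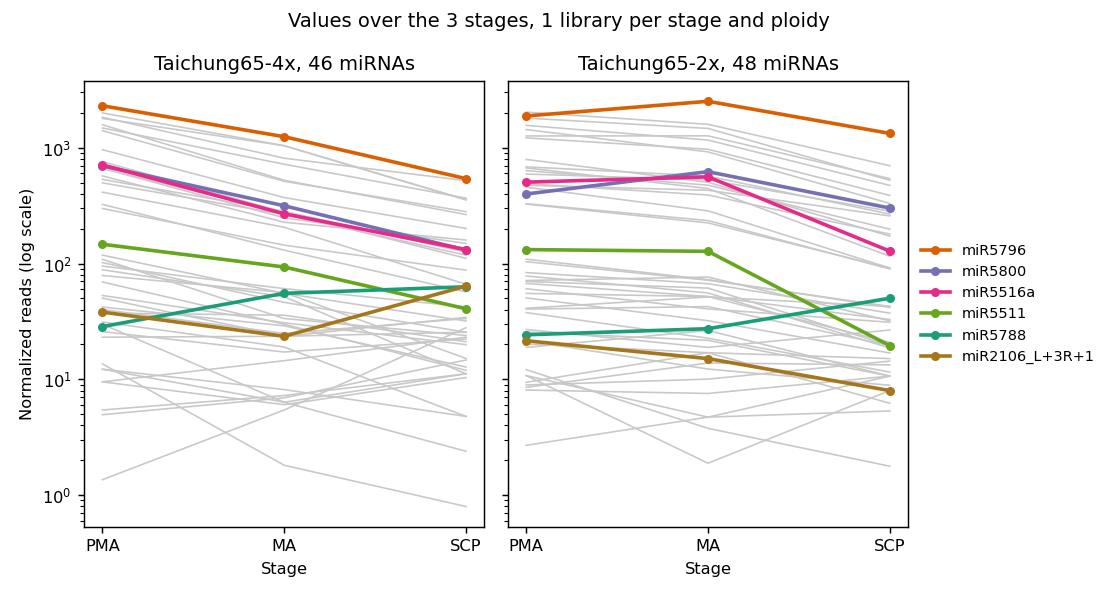
Normalized reads (y axis, log scale) at PMA, MA and SCP (x axis) for the 46 miRNAs listed for Taichung65-4x (left) and the 48 listed for Taichung65-2x (right), 1 library per stage and ploidy; grey lines are the miRNAs not named in the legend. In Taichung65-4x osa-miR5796 is lower at each step (2302, 1245 and 541), while in Taichung65-2x its highest point is at MA (2517).

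The 41 miRNAs of 21 nt and the 11 of other lengths are set side by side here, although the second set is small and low. From PMA to MA in Taichung65-4x the median log2 ratio was −1.02 over the 38 of 21 nt, against −0.62 over the 8 of other lengths, and in Taichung65-2x it lay the other way, at −0.31 over 40, against −0.52 over 8. From MA to SCP in Taichung65-4x the median log2 ratio was −1.004 over the 38 of 21 nt, against 0.53 over the 8 of other lengths. In Taichung65-2x it was −1.16 over 40 of 21 nt, against −0.29 over 8. Between ploidies at SCP it was −0.47 over 37 of 21 nt, against 0.39 over 5. At PMA and MA the 2 sets were closer, at 0.15 against −0.12 and at −0.69 against −0.36. Length does not stand alone here, since 37 of the 41 of 21 nt are annotated sequences and most of the others are altered forms. By first base, the 8 that start with C had the lowest medians from MA to SCP, −1.41 in Taichung65-4x and −1.39 in Taichung65-2x, beside −0.72 over 25 and −1.12 over 26 that start with T. Set against the 21 nt miRNAs outside the group, the 21 nt miRNAs in it had the lower median at both steps in Taichung65-4x, −1.02 against −0.75 and −1.004 against −0.65. In Taichung65-2x the medians were −0.31 against −0.19 and −1.16 against −0.68.

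The 10 miRNAs listed for 1 ploidy were low throughout. For Taichung65-4x alone, osa-miR2870 had 13.6, 1.81 and 0.797 normalized reads at PMA, MA and SCP, osa-miR5505_R-3 12.2, 8.15 and 4.78, osa-miR6255 5.44, 7.25 and 11.2 and osa-miR5082_L-1 1.36, 5.44 and 27.9. Apart from osa-miR5082_L-1, none of these 4 exceeded the limit of 10 by 2-fold. For Taichung65-2x alone, osa-miR5837.2 had 25.6, 21.7 and 10.7, osa-miR1857-3p 12.1, 3.77 and 1.78 and osa-miR1859 10.8, 4.72 and 5.33. osa-miR5810_R-6_1ss13TC had 10.8, 1.89 and 7.996, osa-miR1880_R-3 8.08, 7.55 and 10.7 and osa-miR5077_1ss5GA 2.69, 4.72 and 10.7. osa-miR5837.2 alone among these 6 passed that mark. A miRNA missing from the table of a ploidy may have had up to 10 in each of its stages, so absence from a table is not absence from the anther.

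For 27 of the 52 a strand from the opposite arm of the same hairpin was listed too, which allows the 2 strands to be compared within a library, free of any scaling. The annotated strand was above its opposite in 18, 19 and 18 of 22 pairs at PMA, MA and SCP in Taichung65-4x, against 21 of 25, 20 of 25 and 18 of 24 in Taichung65-2x. The median ratio of annotated to opposite strand was 3.28, 2.24 and 3.21 in Taichung65-4x, against 3.08, 2.33 and 2.22 in Taichung65-2x. These medians are not over the same pairs. For example, osa-miR5496 and osa-miR5800 have a ratio in Taichung65-2x alone and osa-miR5818 in Taichung65-4x alone. A pair also needs an opposite strand listed for that ploidy, so hairpins whose opposite strand stayed low are left out. In 19 pairs the annotated strand led in every library with a ratio. osa-miR5818 led most, 129-fold, 141-fold and 117-fold at PMA, MA and SCP in Taichung65-4x. Its opposite strand had only 10.9, 3.62 and 2.39 normalized reads there, so these ratios rest on few reads. osa-miR5796 led 25.7-fold, 23.7-fold and 28.2-fold in Taichung65-4x, against 20.5-fold, 33.8-fold and 40.4-fold in Taichung65-2x. In 3 pairs the opposite strand led in all 6 libraries. These are osa-miR5528, osa-miR5495 and osa-miR1869_R-3. osa-miR5528 had only 0.062, 0.0849 and 0.125 of its opposite strand in Taichung65-4x, against 0.12, 0.109 and 0.176 in Taichung65-2x, so its annotated strand is the minor one in these anthers. osa-miR5511 kept a ratio of 3.09, 3.43 and 3.40 in Taichung65-4x, against 3.38, 3.07 and 1.22 in Taichung65-2x, where the annotated strand dropped more than its opposite at SCP. Calls between stages, unlike these ratios, depend on the scaling. As deposited, from MA to SCP in Taichung65-4x the annotated strand was called lower in 9 of 19 pairs, the opposite strand in 9 and both in 6. Of all miRNAs, 21.3% were called lower at that step. In Taichung65-2x the annotated strand was called lower in 13 of 23 pairs, the opposite strand in 17 and both in 11, where 37.2% of all miRNAs were called lower. The counts for both strands have no share over all miRNAs beside them and were not tested.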

How the data were processed

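Anther small RNA libraries, 1 for each of 3 stages in Taichung65-4x and in Taichung65-2x, were analysed from 2 tables, 1 per ploidy. The authors passed the reads through Illumina's filter and the ACGT101-miR program, aligned them to miRBase precursors and the rice genome (build not given in the sources used here), and deposited a signal per miRNA: copy number multiplied by 1 correction factor per library. What 1 read is worth was taken in each library as the largest step at which most low values come out whole. At a tolerance of 0.01, 72.3% to 76.1% of all values and 89.1% to 91.7% of those of the 52 miRNAs came out whole, too few for a count test. The tables account for 77399 to 113099 such reads a library. No chromosome, start or end is given, because no rice genome was used here.

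miRNAs were matched between tables by name. A call needed a larger value over 10 and a log2 ratio past 1 either way, after the limits of the study's methods without its test of reads. A listed 0 was set at 0.01 and an unlisted miRNA at 10. Medians are over miRNAs listed in both libraries compared. With 1 library a group, a comparison of 2 libraries has no SD and no p. A fit over all 6 libraries with stage or ploidy as a block was not run, because each comparison was made within a stage or a ploidy. Alternatives were 3 scalings, a larger value over 50, no limit on the level, 10 added to both values, and miRNAs listed for both ploidies only. Repeating the counts of stage courses, of calls in at least 1 ploidy comparison and of overlaps with the scalings was added after seeing the data. The code for the calls was run on simulated reads with a known scale, planted changes well past the 2-fold limit and no variation between libraries. That run does not bear on calls near the limit or on the choice of scaling.

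The 52 miRNAs, the lists set beside them and the rule for named ones were chosen with earlier results of these data known. Named are the examples in the rule that defines the group, those the study names in its text, the 5 most abundant per library, the 5 largest ratios either way at each ploidy comparison and the 3 largest at each stage comparison (20 or more in the higher library), those called alike at 2 stages, the 5 most abundant listed for each ploidy alone, and hairpins with both arms in the group. Python 3.11.15, pandas 2.3.3, numpy 2.4.6, scipy 1.17.1 and matplotlib 3.10.9 were used.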

Additional observations from a re-analysis of the deposited data

Results flagged for a closer look

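A few miRNAs moved in opposite directions where the same contrast was taken in both ploidies or at several stages, and none of these differences was tested, since each group has 1 library. osa-miR5800 stood out at the step from PMA to MA, with log2 ratios of −1.14 in Taichung65-4x and 0.64 in Taichung65-2x, a difference of −1.78. Between ploidies its log2 ratio was 0.81 at PMA and −1.20 at SCP, a difference of 2.01. Both pairs kept opposite signs under each of the 3 other scalings.

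osa-miR2106_L+3R+1 had log2 ratios of 1.44 in Taichung65-4x and −0.92 in Taichung65-2x at the step from MA to SCP, a difference of 2.35, but with clean reads the second ratio was −0.05. At the same step osa-miR5492 had 0.82 in Taichung65-4x and −1.45 in Taichung65-2x, a difference of 2.27. Its ratio between ploidies was −1.42 at MA and 0.84 at SCP, and the difference of −2.27 is the same quantity taken the other way. It rests on 7 reads in MA-4x, 14 in SCP-4x, 18 in MA-2x and 7 in SCP-2x. osa-miR5789, with 6 reads in SCP-4x, had ratios between ploidies of 0.73 at PMA and −1.16 at SCP, a difference of 1.89. The cause of these differences was not tested.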

How the results depend on the processing

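Each library has 1 value per miRNA and no replicate, and the scale of a library decides many calls, so the counts below bound what can be read from them. They are counts of the group alone, without the share over all miRNAs, and show only how far its calls depend on the processing. Calls lower in Taichung65-4x at MA numbered 2 with equal sums, 2 with the median ratio, 2 with clean reads, 4 with a larger value over 50 and 3 with 10 added, against 7. The 1 higher at MA became 0 with 10 added, and the 1 lower at PMA became 0 with a larger value over 50, with 10 added and where only miRNAs listed for both ploidies were taken. At SCP, calls higher in Taichung65-4x numbered 6 with equal sums, 5 with the median ratio, 1 with a larger value over 50 and 1 with 10 added, against 3, and calls lower numbered 2 with equal sums and 4 with a larger value over 50, against 9.

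From PMA to MA in Taichung65-4x, calls lower at MA numbered 4, 4 and 3 with equal sums, with the median ratio and with clean reads, against 21, and calls higher 2, 2 and 2, and 1 with no limit on the level, against 0. From MA to SCP there, calls lower numbered 6, 6 and 4 with these scalings, against 17, and calls higher 8, 7 and 9, and 1 with a larger value over 50, against 3. From PMA to MA in Taichung65-2x, calls higher numbered 1, 1 and 3 with the scalings, against 0, and calls lower 0 with a larger value over 50 and 0 with 10 added, against 3. From MA to SCP there, calls lower numbered 9, 3 and 3 with the scalings, against 25. Calls higher numbered 2, 5 and 5 with the scalings, 0 with a larger value over 50, 2 with no limit on the level and 0 with 10 added, against 1. The other 47 counts of calls stayed within 1.5 times.

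The median log2 ratio of the group turned its sign once, at the step from PMA to MA in Taichung65-2x, where it was −0.32 as deposited, −0.037 with equal sums and 0.057 with clean reads. At MA between ploidies it lay between −0.67 and −0.35 over all scalings, and at SCP between −0.39 and −0.06. A scaling shifts every miRNA of a library pair by 1 amount, which by its construction moves calls near the 2-fold limit. Depth limits the low miRNAs most, since there a few reads decide a fold.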
